A study of Mus musculus with 2 samples.

Results

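The 8 genes described here were P2ry12, P2ry13, P2ry6, Gpr34, P2rx4, P2rx7, Entpd1 and Adora3, which encode receptors for nucleotides and nucleosides on microglia, a lipid receptor related to P2RY12, and an enzyme that removes extracellular nucleotides. They were taken by name from the 19537 genes of 2 single-cell matrices, and each of the 8 was listed in both. Both groups held CD11b+CD45int cells sorted from the brains of mice labelled as given LPS, a bacterial lipopolysaccharide injected into the peritoneum, 24 h earlier, and they were PARK7/DJ-1 knock-out (called KO here) and PARK7/DJ-1 wild type (called WT). The knock-out removes DJ-1, whose loss causes a familial form of Parkinson's disease, from every cell of the animal and not from microglia alone. The line carries a gene-trap allele of Park7 on a C57BL/6NCrl background, and the animals were age-matched siblings of 3 or 4 months. Each library pooled 2 mice, a female and a male, and there was 1 library per genotype. The comparison was designed to ask how microglia lacking DJ-1 differ from wildtype microglia under systemic inflammation. As replicate libraries were lacking, the genotypes were compared without a test, all intervals are 95% intervals for counting error only, and genotype cannot be told apart from library.

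Extracellular ATP and its breakdown products are danger signals that microglia read through purinergic receptors. P2Y receptors and adenosine receptors signal through G proteins, whereas P2X receptors are ATP-gated cation channels. CD39, the product of Entpd1, converts ATP and ADP to AMP and so limits the signal that reaches these receptors. P2ry12 is a widely used marker of homeostatic microglia, and its transcript is known to decline when microglia become inflamed. An untreated library was not analysed here, so a fall of any of these genes after LPS could not be measured. The cells of WT were instead ordered by how many inflammatory transcripts each carried.

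Cells were barcodes with at least 500 UMIs (unique molecular identifiers, each marking 1 captured transcript) and at least 100 genes, which left 320 cells and 381305 UMIs in KO and 1427 cells and 1989011 UMIs in WT. Their median depth was 963.5 and 1065 UMIs, and the libraries shared 0 cell barcodes. The knocked-out gene Park7 had 1 UMI in KO and 323 UMIs in WT. Levels are UMIs of a gene per 1000000 UMIs in the cells of its library (CPM), without scaling by length, because only the 3' end of each transcript was captured and counted. All 14 microglial marker genes were present in both libraries, and summed to 42966 CPM in KO and 39862 CPM in WT. Beyond counting error, 10 of the 14 were higher in KO and 4 lower, beside 19.6% and 18.7% of all genes with at least 20 UMIs. The libraries stood apart in inflammatory transcripts: 36 such genes summed to 960 CPM in KO and 14826 CPM in WT, and Saa3, an acute phase gene, had 0 UMIs in KO and 8367 in WT, where a floor of 3 counts puts it at least 535-fold lower in KO. Markers of other cells were present at lower levels: the neutrophil list summed to 0 and 70.9 CPM, the monocyte list to 28.8 and 46.3 CPM, the border macrophage list to 62.9 and 41.7 CPM and the astrocyte list to 407 and 181 CPM. The endothelial list summed to 108 CPM in KO and 20.6 CPM in WT (ratio 5.22, 3.30 to 8.25), the oligodendrocyte list to 102 and 73.9 CPM, the neuron list to 55.1 and 66.9 CPM, the platelet list to 26.2 and 14.6 CPM and the lymphocyte list to 7.87 and 15.1 CPM. The choroid plexus list summed to 2135 and 15.1 CPM, mostly from 1 KO cell. The inflammatory gap between 2 libraries with the same LPS label accompanies every comparison below. Whether the KO mice were reached by the LPS to the same extent could not be told from the files, so each ratio of KO over WT compares libraries of unequal inflammatory level. Neither the part of that gap in the results nor that of the marker lists was tested.

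Of the 8 genes, 6 had entries among the promoters of RefSeq (build GRCm38.p6), each window running from 250 bases before to 50 bases after a transcription start. Shown are 4 of these windows, those of genes far apart between the libraries (P2ry12, P2ry13 and Entpd1) beside P2rx4, which differed the other way. Each is written 5' to 3' along the strand of its gene. Capitals mark the PU.1 core GAGGAA, for the factor that maintains microglial identity, or a match to an NF-kB pattern of GGGA, any 2 bases and TTCC. All patterns were searched on both strands, and the NF-kB match in P2ry12 is the reverse complement of the pattern.
P2ry12, chr3:59262936-59263235, minus strand: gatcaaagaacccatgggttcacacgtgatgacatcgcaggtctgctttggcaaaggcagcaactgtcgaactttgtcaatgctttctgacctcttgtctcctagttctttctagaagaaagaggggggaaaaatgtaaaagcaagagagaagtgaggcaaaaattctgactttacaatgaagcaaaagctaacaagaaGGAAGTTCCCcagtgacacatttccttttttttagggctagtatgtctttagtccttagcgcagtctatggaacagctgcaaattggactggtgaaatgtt
P2ry13, chr3:59210833-59211132, minus strand: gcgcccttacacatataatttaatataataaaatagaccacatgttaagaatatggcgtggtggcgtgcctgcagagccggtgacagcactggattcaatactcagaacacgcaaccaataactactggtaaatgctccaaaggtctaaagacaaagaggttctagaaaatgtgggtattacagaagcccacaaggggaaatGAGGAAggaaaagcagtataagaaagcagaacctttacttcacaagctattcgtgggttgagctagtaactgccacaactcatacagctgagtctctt
Entpd1, chr19:40659520-40659819, plus strand: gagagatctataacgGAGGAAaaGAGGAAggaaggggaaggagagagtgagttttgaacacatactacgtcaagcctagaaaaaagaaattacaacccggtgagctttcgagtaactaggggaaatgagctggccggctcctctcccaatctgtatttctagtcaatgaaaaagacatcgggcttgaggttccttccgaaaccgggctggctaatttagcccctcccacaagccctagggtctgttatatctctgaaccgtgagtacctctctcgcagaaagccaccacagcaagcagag
P2rx4, chr5:122707294-122707593, plus strand: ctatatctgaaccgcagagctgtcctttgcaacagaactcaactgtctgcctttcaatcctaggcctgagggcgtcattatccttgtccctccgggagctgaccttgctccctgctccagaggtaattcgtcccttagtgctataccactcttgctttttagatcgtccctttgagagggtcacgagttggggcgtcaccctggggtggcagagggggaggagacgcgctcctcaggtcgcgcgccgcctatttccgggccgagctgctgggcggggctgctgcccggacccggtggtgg

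The 6 genes had 8 windows, as P2rx7 and Entpd1 each had 2 annotated starts. The PU.1 core was present in 5 of the 8 windows and in 28.3% of all 32851 promoter windows. It began 48 bases before the start in P2ry13, stood side by side with another copy at 235 and 227 bases before the start in the Entpd1 window shown, and was not in the other Entpd1 window or in those of P2ry12 and P2rx4. The NF-kB pattern was present in 1.47% of all windows and in 1 of the 8, that of P2ry12, where it began 51 bases before the start. AP-1 letters (TGANTCA) occurred in 2 of the 8 windows, those of Adora3 and P2rx7, against 7.81% of all windows, and the SMAD letters CAGACA in the P2rx4 window alone, against 21.0%. No window held the letters TATAAA (13.6% of all windows), an IRF pattern of GAAA, any 2 bases and GAAA (3.44%), or a MEF2 pattern (3.19%). These matches are descriptions of the letters in the windows and not measured binding.

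P2ry12 was the member with the widest gap. It is the ADP receptor that couples to Gi proteins and steers microglial processes towards injury, and it lies on chromosome 3 (59123682 to 59170429, minus strand, GRCm39). Its level was 3837 CPM (3643 to 4039, 1463 UMIs) in KO and 406 CPM (378 to 435, 807 UMIs) in WT. By level it ranked 10 among all genes of KO and 318 in WT. The ratio of KO over WT was 9.46 (8.67 to 10.3), above the ratios of 99.7% of the 9085 genes that reached 20 UMIs in total.

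P2ry13 encodes another Gi-coupled ADP receptor and lies 5.378 kb from P2ry12 on the same strand (chromosome 3, 59114539 to 59118304). It was present at 753 CPM (668 to 845) in KO and 198 CPM (179 to 219) in WT, a ratio of 3.80 (3.25 to 4.44). The gap of P2ry13 was therefore smaller than that of its neighbour, and P2ry12 transcripts per P2ry13 transcript numbered 5.10 (4.49 to 5.81) in KO and 2.05 (1.81 to 2.32) in WT. P2ry6, the UDP receptor tied to phagocytosis (chromosome 7, 100585308 to 100624173, minus strand), went the other way in its point values. Its level was 94.4 CPM (66.1 to 131) in KO and 128 CPM (113 to 145) in WT, and its ratio of 0.736 (0.504 to 1.05) was within counting error of 1.

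Gpr34, a receptor for lysophosphatidylserine that is related in sequence to the P2Y receptors (chromosome X, 13489625 to 13507116, plus strand), came closest to P2ry12. It was present at 1639 CPM (1513 to 1773, 625 UMIs) in KO and 204 CPM (184 to 224, 405 UMIs) in WT, with a ratio of 8.05 (7.09 to 9.14). P2ry12 transcripts per Gpr34 transcript numbered 2.34 (2.13 to 2.57) in KO and 1.99 (1.77 to 2.25) in WT, the most similar pair of values among the 7 other members. Entpd1 (chromosome 19, 40600810 to 40731585, plus strand) was present at 1998 CPM (1859 to 2146) in KO and 461 CPM (431 to 491) in WT, a ratio of 4.34 (3.94 to 4.78). In WT it had the highest point value of the 8 genes, with an interval that overlapped that of P2ry12, whereas P2ry12 was highest in KO.

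The P2X channels split in direction. P2rx7, the channel whose opening by high ATP is known for inflammasome activation (chromosome 5, 122781942 to 122830400, plus strand), was present at 147 CPM (111 to 191, 56 UMIs) in KO and 78.4 CPM (66.6 to 91.8, 156 UMIs) in WT. Its ratio of 1.87 (1.35 to 2.56) was above counting error and under 2-fold. P2rx4, the channel known from microglia in neuropathic pain (chromosome 5, 122845541 to 122867803, plus strand), was present at 70.8 CPM (46.7 to 103, 27 UMIs) in KO and 111 CPM (96.5 to 126, 220 UMIs) in WT. With a ratio of 0.640 (0.413 to 0.957), it was the only member lower in KO beyond counting error. That call was lost in cells with an Xist UMI (ratio 0.654, 0.382 to 1.07), and in cells of at least 1000 UMIs the intervals overlapped, at 86.3 CPM (54.1 to 131) in KO and 111 CPM (94.5 to 129) in WT. Adora3, the Gi-coupled adenosine A3 receptor (chromosome 3, 105778174 to 105816242, plus strand), had 126 CPM (92.8 to 167) in KO and 142 CPM (126 to 160) in WT. Its ratio was 0.885 (0.637 to 1.20), within counting error of 1.

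**Figure D1:**
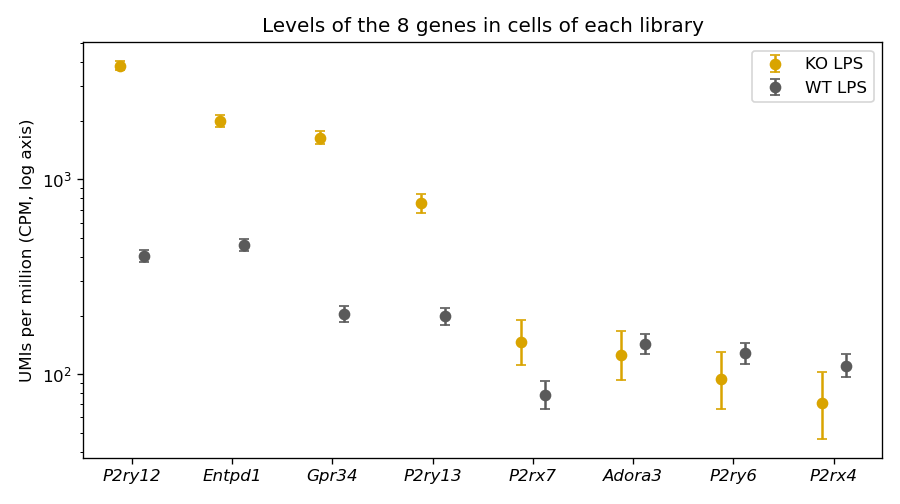
Levels of the 8 genes in the cells of KO and WT, in CPM on a log axis, with points for the 1 library per genotype and bars for the 95% counting interval. P2ry12, Entpd1, Gpr34 and P2ry13 lie far apart between the libraries, from 753 to 3837 CPM in KO and from 198 to 461 CPM in WT, whereas the other genes stay between 70.8 and 147 CPM in both.

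Summed over the 8 genes, the level was 8665 CPM in KO and 1728 CPM in WT. P2ry12 supplied 44.3% of those UMIs in KO and 23.5% in WT. At least 2-fold higher in KO were 4 of the 8 (P2ry12, Gpr34, Entpd1 and P2ry13), where 13.5% of all 9085 genes were. None of the 8 was at least 2-fold lower, where 15.3% of all genes were. Beyond counting error, 5 members were higher in KO, where 19.6% of all 9085 genes were, 1 was lower, where 18.7% of all genes were, and 2 were on neither side. The median log2 ratio of the 8 was 1.42, beside 0.03 over all genes. Among 17 other genes of homeostatic microglia, 11 were at least 2-fold higher in KO and none at least 2-fold lower, with a median of 1.35. Siglech (5.86), the adhesion receptor gene Gpr56 (4.08) and Fcrls (3.83) had ratios between those of Gpr34 and P2ry13 in that list.

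In the order of levels within WT, Entpd1 (461 CPM) and P2ry12 (406 CPM) came before Gpr34 (204 CPM), P2ry13 (198 CPM), Adora3 (142 CPM), P2ry6 (128 CPM), P2rx4 (111 CPM) and P2rx7 (78.4 CPM). The intervals of Entpd1 and P2ry12 overlapped there, as did those of Gpr34 and P2ry13, those of Adora3 and P2ry6 and those of P2ry6 and P2rx4. KO had the order P2ry12, Entpd1, Gpr34, P2ry13, P2rx7, Adora3, P2ry6 and P2rx4, with the intervals of neighbours overlapping among the last 4. By point values, P2rx7 thus stood last of the 8 in WT and ahead of Adora3, P2ry6 and P2rx4 in KO.

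The counts of some members cannot be assigned with certainty, because it was not stated whether counting used the strand. P2ry12 and P2ry13 lie inside Med12l, a Mediator subunit gene on the opposite strand, and exons of P2ry12 overlap exons of Med12l. Med12l was present at 184 CPM in KO and 73.4 CPM in WT (ratio 2.50, 1.85 to 3.35), far under the level of P2ry12 in each library. Gpr34 lies within Cask on the opposite strand, with no exon in common, and Cask had 83.9 and 40.2 CPM (ratio 2.09, 1.34 to 3.18). Adora3 shares exons on the same strand with Tmigd3, which the matrices did not list, so that its UMIs may include that gene. Other receptor genes of the P2ry12 locus gave almost nothing: P2ry14 had 0 and 3 UMIs, and Gpr171 had 0 in both libraries. Siah2 (5 and 27 UMIs) and Igsf10 (3 and 22 UMIs) were sparse, and Mbnl1, a splicing regulator, had a ratio of 1.80 (1.55 to 2.09).

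Relatives of the members were compared in the same way, by family. Among the P2Y receptors, P2ry2 had 0 UMIs in KO and 18 UMIs in WT, and P2ry1 had 0 in both. Of the relatives of Gpr34, Ptafr, the receptor for platelet-activating factor, was present at 83.9 and 27.1 CPM (ratio 3.09, 1.93 to 4.87), and the lysophosphatidic acid receptor gene Lpar6 at 653 and 434 CPM (1.51, 1.30 to 1.73). Gpr183, an oxysterol receptor gene, was lower in KO, with 228 and 288 CPM (0.792, 0.625 to 0.994). The leukotriene receptor gene Cysltr1 had a ratio of 1.35 (1.00 to 1.78), and A630033H20Rik, an older symbol of P2ry10b, a ratio of 1.64 (0.871 to 2.92). P2rx3, P2rx5, P2rx6 and Adora2a had 0 UMIs in both libraries.

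Nucleotide release and adenosine handling showed smaller gaps than the leading members. The nucleoside transporter gene Slc29a3 was present at 365 CPM in KO and 202 CPM in WT (ratio 1.81, 1.48 to 2.20), whereas Slc29a1 (1.10, 0.642 to 1.79) and the adenosine kinase gene Adk (0.652, 0.126 to 2.15) were within counting error of 1. Lrrc8a and Lrrc8d, subunits of volume-regulated anion channels, had ratios of 1.19 (0.628 to 2.10) and 1.62 (0.917 to 2.76), and the vesicular nucleotide transporter gene Slc17a9 a ratio of 0.630 (0.242 to 1.38). Enpp2, which encodes autotaxin, had 90 UMIs in KO and 7 in WT. Of those 90, 82 came from 1 cell that also carried 655 UMIs of choroid plexus markers. Without that cell, an alternative added after the data were seen, Enpp2 had 8 and 7 UMIs, or 21.1 and 3.52 CPM (ratio 6.004, 1.90 to 19.5).

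**Figure D2:**
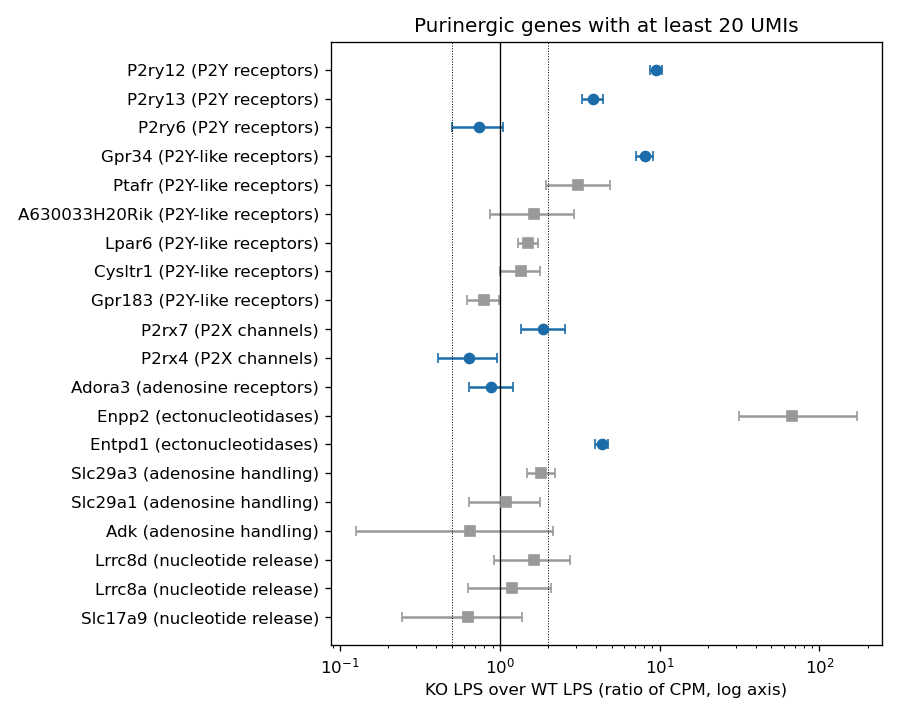
Ratio of KO over WT (log axis) for the genes of the purinergic lists that reached 20 UMIs in total, with circles for the 8 members, squares for their relatives, bars for the 95% counting interval, a solid line at 1 and dotted lines at a 2-fold difference. P2ry12, Gpr34, Entpd1 and P2ry13 stand to the right of the dotted line with their whole interval, and among the squares only Enpp2 does, 82 of whose 90 UMIs in KO came from 1 cell.

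Genes that act downstream of the receptors were examined next. Of 22 genes of Gi signalling from P2Y12, 19 had at least 20 UMIs, and 3 of these were at least 2-fold higher and 1 at least 2-fold lower in KO, where 13.5% and 15.3% of all genes were. Beyond counting error, 8 of the 19 were higher and 3 lower, where 19.6% and 18.7% of all genes were. The highest of the 19 was Rgs10, a regulator that shortens G protein signals, at 800 CPM in KO and 263 CPM in WT (ratio 3.04, 2.63 to 3.50). The lowest was Kcnk13, the THIK-1 potassium channel gene, at 21.0 CPM (8 UMIs) in KO and 58.8 CPM in WT (0.357, 0.150 to 0.726). Of 9 genes of the P2X7 and inflammasome pathway, 5 were lower in KO beyond counting error and 2 were higher, where 18.7% and 19.6% of all genes were. At 2-fold, 1 of the 9 was lower and 1 higher, where 15.3% and 13.5% of all genes were. Il1b, the cytokine gene processed by that pathway, had 1 UMI in KO and 322 UMIs in WT (0.0162, 0.000409 to 0.0909), and the highest was Txnip, with 412 and 136 CPM (3.02, 2.47 to 3.69).

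The share of cells that carried each transcript was compared after each cell was thinned to 500 UMIs, a depth that all cells reached. P2ry12 was present in 75% (69.9 to 79.7) of KO cells and 16.5% (14.6 to 18.5) of WT cells. Entpd1 was present in 60% and 18.9% of cells, Gpr34 in 48.8% and 8.69%, and P2ry13 in 32.5% and 8.41%. The intervals of these 4 members were apart between the libraries at 500 UMIs, at 1000 UMIs and without thinning. Without thinning, P2ry12 was present in 90% and 35.3% of cells, and P2rx4 was the only member with a lower share in KO beyond its interval (7.81% against 13.5%).

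Shares of the less abundant members were small in both libraries. P2rx7 was present in 7.81% of KO cells and 3.99% of WT cells, P2ry6 in 4.06% and 6.52%, Adora3 in 5.31% and 6.31%, and P2rx4 in 3.44% and 5.33%. The intervals of all 4 overlapped between the libraries at this depth. Counted together, at least 4 of the 8 members were present in 44 KO cells (13.8%) and 5 WT cells (0.350%). Cells with none of the 8 numbered 13 (4.06%) in KO and 658 (46.1%) in WT, and the median number of members per cell was 2 and 1. Within each library, the share of cells with P2ry12 had overlapping intervals in cells with and without each of the other 7 members. P2ry12 UMIs per thinned KO cell ran from 0 to 7, with 0 in 25% of the cells, and those per WT cell from 0 to 2, with 0 in 83.5%.

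These shares must be set beside free RNA in the droplets, since barcodes with 100 UMIs or fewer, which are too shallow for cells, carried the members as well. A droplet of 500 UMIs filled only from that ambient profile would hold P2ry12 in 91.7% of cases in KO and 24.8% in WT. Both values exceed the shares among cells. A droplet filled only from free RNA is an extreme case, and the part of each cell's UMIs that was free RNA was not measured. A P2ry12 UMI in a cell therefore cannot be assigned to that cell or to free RNA, and was not read as expression by that cell. The shares of Entpd1 (ambient 60.4% and 24.0%) and of Gpr34 in KO (ambient 52.5%) did not exceed the ambient value either. Shares above the ambient value, with the whole interval, were those of P2ry13 in KO (ambient 25.1%) and of P2ry6 (3.73%), Adora3 (3.42%) and P2rx4 (2.35%) in WT. At 1000 UMIs the latter 3 were again above ambient, whereas P2ry13 in KO was not (45.3%, 37.1 to 53.7, ambient 43.9%), and P2ry13 in WT was just above it (17.7%, 15.0 to 20.5, ambient 14.9%). No cell type that should lack these genes was present in number, and the 1 KO cell with the choroid plexus markers held 1 P2ry12 UMI among 2723.

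**Figure D3:**
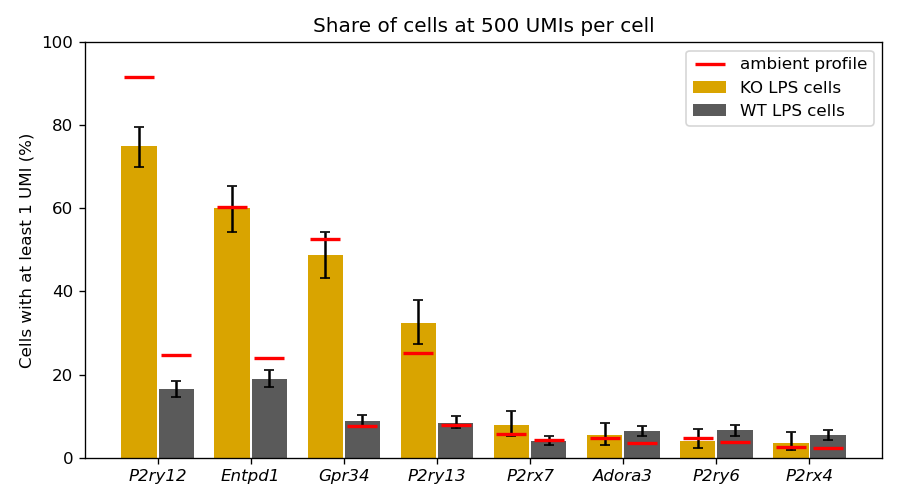
Share of cells with at least 1 UMI of each member after thinning to 500 UMIs per cell, in percent, with bars for the 2 libraries, error bars for the 95% Clopper-Pearson interval and red marks for a droplet filled from the ambient profile of that library. The 4 leading members are in 32.5% to 75% of KO cells and 8.41% to 18.9% of WT cells, and the ambient mark of P2ry12 lies above its bar in both libraries.

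The gap in P2ry12 between the libraries was present at every depth of barcode. In barcodes of 1 to 100 UMIs, P2ry12 was at 4972 CPM in KO and 570 CPM in WT (ratio 8.72, 7.43 to 10.3). Between 100 and 500 UMIs it was at 3973 and 534 CPM, from 500 to under 1000 UMIs at 3666 and 382 CPM, and at 1000 UMIs or more at 3922 and 413 CPM. Ambient P2ry12 therefore was 1.30 times its level in cells in KO and 1.41 times in WT. P2rx4 and Adora3 showed the opposite in WT, where their ambient level was 0.430 and 0.490 of that in cells.

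**Figure D4:**
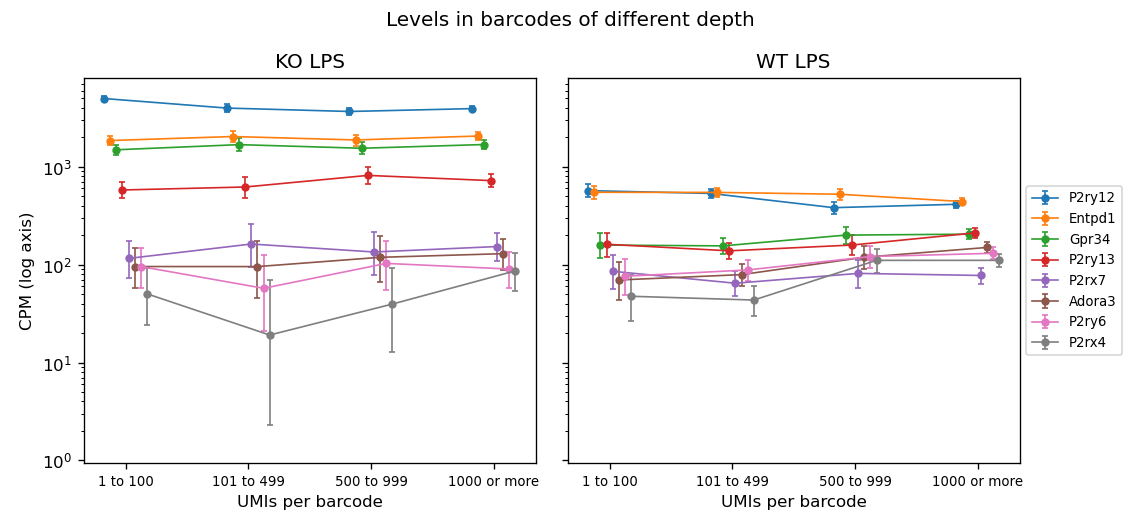
Levels of the 8 genes (CPM, log axis) in barcodes of 4 depth classes, by UMIs per barcode, in KO (left) and WT (right), with bars for the 95% counting interval. P2ry12 lies between 3666 and 4972 CPM at all depths in KO and between 382 and 570 CPM in WT.

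Which members vary with inflammation was then asked within WT. Each cell was thinned to 500 UMIs and its UMIs of the 36 inflammatory genes were added up as its load, which ran from 0 to 91 with a median of 5. The low range (load up to 3) held 539 cells, the middle range 488 cells and the high range (8 or more) 400 cells. These are ranges of a score and not cell types, as 472 cells lay within 1 UMI of the lower limit and 260 within 1 UMI of the upper. The ambient profile alone gives a load of 3.52 per 500 UMIs in WT, so the low range is at its level. Of the 320 KO cells, 317 fell in the low range, 2 in the middle and 1 in the high.

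P2ry13 had the widest difference along the load as defined here, though not in cells thinned to 1000 UMIs. Its level was 224 CPM (190 to 263) in the low range, 218 CPM (184 to 256) in the middle and 148 CPM (120 to 182) in the high, which made it 1.51-fold (1.16 to 1.98) lower in cells of high load. It was the only member to reach 1.5-fold, where 14.8% of all 7493 genes with at least 20 UMIs in these ranges were that much lower, and it fell under that limit in all 4 alternatives, from 1.27-fold to 1.47-fold. At 1000 UMIs, Gpr34 (1.42-fold lower) and P2ry12 (1.39-fold lower) differed about as much as P2ry13 (1.38-fold), and P2rx4 was higher in the high range by 0.53 on the log2 scale. Entpd1 had 510, 474 and 393 CPM, and was 1.30-fold (1.10 to 1.54) lower in the high range. P2ry12 had 430 CPM (382 to 483), 412 CPM (366 to 463) and 372 CPM (326 to 423), and its 1.16-fold difference (0.971 to 1.38) was within counting error, as was that of Gpr34 (209, 218 and 182 CPM, 1.15-fold, 0.893 to 1.49).

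The other members showed no gradient beyond counting error. P2rx7 had 95.8, 68.7 and 70.2 CPM (1.36-fold lower, 0.917 to 2.05) and P2rx4 had 91.4, 126 and 115 CPM (1.26-fold higher, 0.883 to 1.80). P2ry6 stayed between 124 and 130 CPM and Adora3 between 139 and 148 CPM. None of the 8 was at least 1.5-fold higher in cells of high load, where 9.92% of all genes were. The median log2 difference of high over low load over all genes was -0.04.

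For P2ry12, Gpr34, Entpd1 and P2ry13, the gap between the libraries was wider than the gradient within WT. Against the low range of WT alone, KO cells of the low range had 8.93-fold (7.87 to 10.2) more P2ry12, 7.84-fold (6.52 to 9.48) more Gpr34, 3.92-fold (3.45 to 4.46) more Entpd1 and 3.36-fold (2.75 to 4.12) more P2ry13. P2rx7 was 1.54-fold (1.06 to 2.24) higher in that comparison. The ratios of P2rx4 (0.781, 0.478 to 1.25), P2ry6 (0.734, 0.483 to 1.09) and Adora3 (0.916, 0.633 to 1.31) were within counting error.

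**Figure D5:**
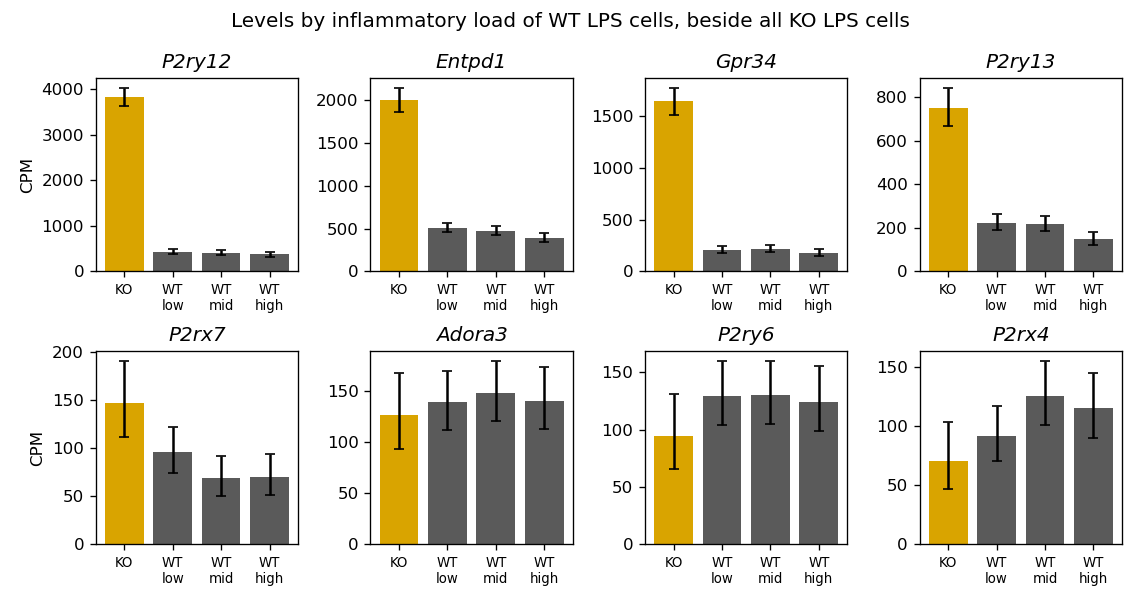
Levels (CPM, linear axes that differ between panels) of the 8 genes in all KO cells and in WT cells of low, middle and high inflammatory load, with error bars for the 95% counting interval. P2ry12 is at 3837 CPM in KO and between 372 and 430 CPM in the ranges of WT, while P2rx4 is lowest in KO, at 70.8 CPM.

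Each library mixed a female and a male mouse, and the mixture differed: Xist, the transcript of the inactive X chromosome, was present in 200 of 320 KO cells and 565 of 1427 WT cells, and Y-linked transcripts in 12 and 195 cells. Among the cells with an Xist UMI, the ratios were 10.6 (9.31 to 12.1) for P2ry12, 10.4 (8.60 to 12.7) for Gpr34, 4.89 (4.26 to 5.62) for Entpd1 and 4.60 (3.68 to 5.77) for P2ry13. Of the cells with a Y-linked UMI, 9 of the 12 in KO and 80 of the 195 in WT also carried Xist, so the sets overlap and the latter is not a set of male cells. In the cells with a Y-linked UMI, the ratios were 10.9 (8.14 to 14.4) for P2ry12, 5.85 (3.48 to 9.48) for Gpr34, 5.63 (3.15 to 9.58) for P2ry13 and 2.00 (1.09 to 3.39) for Entpd1. P2rx7 had a ratio of 2.60 (1.67 to 4.02) in the Xist cells and, from 1 UMI in KO, 0.734 (0.018 to 4.43) in the Y-linked cells.

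Genes with a pattern like that of P2ry12 were sought among 2462 genes with at least 200 UMIs, by Pearson's r of log2(CPM + 1) over 6 pools, the 3 load ranges of each library. Serinc3 (r = 0.978), Tgfbr1 (0.963), Sparc (0.955), Plxdc2 (0.936), Mef2c (0.934) and Snord49b (0.928) were nearest, and Entpd1 (0.761) was the nearest member. Of those pools, 2 held only 1 and 2 KO cells, and the points share libraries and depth. In the pool of 1 KO cell, Gpr34 (r = 0.408) had 0 UMIs, whereas each of the 6 named genes had at least 965 CPM. When KO was kept as 1 pool beside the 3 ranges of WT, an alternative added after the data were seen, Gpr34 was the gene nearest to P2ry12, at a distance of 0.222 on the log2 scale. Rcbtb2 (0.510), Nav2 (0.566), Sox4 (0.590), Siglech (0.635) and Col27a1 (0.854) followed, with Entpd1 in place 9 and P2ry13 in place 15.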

How the data were processed

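Drop-seq libraries of sorted CD11b+CD45int brain cells, 1 per genotype, were analysed. The authors deposited raw counts, that is UMIs per gene for 9999 barcodes per library, without normalisation. The submitters' processing notes name bcl2fastq 2.0, STAR, mm9 and mm10, without a role. The counting program, annotation and use of strand were not given in the sources used here. Genes with missing values in a library (5616 in KO, 3036 in WT) were read as 0.

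From these counts, barcodes with at least 500 UMIs and 100 genes were taken as cells, which kept 55.7% of the UMIs of KO and 64.9% of WT. Doublets were left in. A floor of 3 counts equalled 7.87 CPM in KO and 1.51 CPM in WT. UMIs were summed over cells, in Python 3.11.15 with pandas 2.3.3, numpy 2.4.6, scipy 1.17.1 and matplotlib 3.10.9. Intervals were exact: Poisson (levels), conditional binomial (ratios) and Clopper-Pearson (shares). Log2 ratios used a prior count of 0.5. Thinning drew UMIs without replacement. Free RNA was measured in barcodes of at most 100 UMIs. Positions came from GENCODE vM39 (GRCm39) and promoter letters from RefSeq (GRCm38.p6), each by symbol. The code was tested on simulated data. The study's MAST comparison of cells was left out, since cells from a single pool cannot serve as replicates.

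The 8 members and all gene lists were chosen with earlier results of these data known. Genes named beside the members were those of the purinergic lists that reached 20 UMIs in total, genes at the P2ry12 locus and hosts of members, the highest and lowest gene of the 2 signalling lists, Park7 and the 6 genes most like P2ry12. Siglech, Gpr56, Fcrls, Saa3 and genes at 0 UMIs were chosen after their values were seen. Alternatives changed the cell threshold, the scaling, the cells included, subtraction of ambient RNA, the thinning depth and the definition of load.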

Additional observations from a re-analysis of the deposited data

Results flagged for a closer look

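Barcodes with at most 100 UMIs, which are too shallow to be counted as cells and enter none of the main comparisons, carried 4 members at higher levels in KO than in WT, against which they were set. P2ry12 was at 4972 CPM in these barcodes of KO and 570 CPM in those of WT. Entpd1 was at 1852 and 548 CPM, a ratio of 3.38 (2.81 to 4.07). Gpr34 was at 1490 and 158 CPM, a ratio of 9.41 (6.95 to 12.96). P2ry13 was at 578.7 and 162 CPM, a ratio of 3.58 (2.56 to 5.09). There were 9069 such barcodes with 198723 UMIs in KO and 4267 with 315748 UMIs in WT. The ratios of the other 4 members had intervals that included 1 there.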

How the results depend on the processing

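No log2 ratio of a member, which carries a prior count of 0.5, changed sign, but the ratio of the CPM values of P2rx7, 1.87 in the report, was 0.734 in cells with a Y-linked UMI, from 1 UMI in KO. Among the differences along the load, which were within counting error for these genes, the log2 value of high over low changed sign for P2rx7 (-0.44 in the report, 0.17 with Saa3 alone and 0.10 at 1000 UMIs), P2ry6 (-0.06, then 0.07 for a split at the median and 0.12 at 1000 UMIs) and Adora3 (0.02, then -0.10 with Saa3 alone and -0.20 at 1000 UMIs). Of 80 comparisons of single members with an alternative, 69 stayed within the counting interval of the reported ratio and 11 fell outside it. Those 11 were all in cells with an Xist or a Y-linked UMI, which have wider intervals of their own. Among them, only Gpr34 in the Xist cells (8.60 to 12.7) and Entpd1 in the Y-linked cells (1.09 to 3.39) had intervals that left out the reported ratio. The log2 ratio ranged from 3.18 to 3.45 for P2ry12, from 2.57 to 3.38 for Gpr34, from 1.78 to 2.52 for P2ry13 and from 1.04 to 2.29 for Entpd1. It ranged from 0.11 to 1.38 for P2rx7, from -0.57 to -0.04 for Adora3, from -0.57 to -0.15 for P2ry6 and from -1.52 to -0.33 for P2rx4. P2rx7 passed 2-fold with no UMI minimum, without the deepest cells, in cells with an Xist UMI and with 20% subtracted as ambient. In these settings 5 members were at least 2-fold higher in KO, where the report counted 4. The median log2 ratio of the 8 was 1.79 in cells with an Xist UMI and 0.58 in cells with a Y-linked UMI, of which KO had 12. In the latter, 1 member, P2rx4, was counted as at least 2-fold lower in KO, with 0 UMIs there and 30 in WT. That count comes from the prior count of 0.5 alone, since the interval of its ratio ran from 0 to 2.78. The cause of these shifts was not tested. The number of members at least 1.5-fold lower in WT cells of high load, 1 in the report, was 0 when the cells were split at the median load, when Saa3 alone set the load (434 cells with it, 993 without), when load genes were left out of the totals and when cells were thinned to 1000 UMIs. P2ry13 was then 1.31-fold, 1.27-fold, 1.47-fold and 1.38-fold lower. Depth limits the 4 less abundant members most, which had 27 to 56 UMIs in KO. No paired analysis was possible because each genotype had 1 library and no replicate number.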
